A study of Mus musculus with 12 samples.

Results

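The nuclear-encoded subunits of the respiratory chain and ATP synthase were examined in primary mouse embryonic fibroblasts kept at 21% or 0.1% O2. Members were taken from the array annotation as genes whose symbol begins with Ndufa, Ndufb, Ndufc, Ndufs, Ndufv, Uqcr, Cox5, Cox6, Cox7, Cox8 or Atp5, together with Sdha, Sdhb, Sdhc, Sdhd and Cyc1. The Ndufaf assembly factors were not taken. Of 81 such genes, 76 had a probe set whose signal averaged 100 or more over the 12 arrays, and each was represented by its brightest probe set. They were 76 of the 10059 genes with 1 symbol that were tested: 33 belonged to complex I, 4 to complex II, 9 to complex III, 11 to complex IV and 17 to complex V, and Ndufa4 and Ndufa4l2 were kept as a pair of their own. The rule used the mean signal over all 12 arrays and no difference between groups.

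Each of 6 lines of fibroblasts from e14.5 embryos gave 1 array after 6 h of normoxia (21% O2) and 1 after 6 h of hypoxia (0.1% O2), both with 5% CO2 at 37 °C and in medium equilibrated beforehand, so that there were 4 groups of 3 arrays. The 3 control lines carried 1 floxed (conditional knockout) allele, of Crebbp, the gene for CBP, in flox1 and of Ep300, the gene for p300, in flox2_1 and flox2_2. In the 3 triCH1 lines the CH1 domain was deleted from 3 of the 4 alleles of these acetyltransferases and the allele that was left was floxed: CBP in triCH1flox1, p300 in triCH1flox2_1 and triCH1flox2_2. All 6 lines, controls included, had received Cre adenovirus at passage 3 and had been expanded at least 100-fold, so no line without Cre or without a floxed allele was compared. The labels do not say whether the lines of a type came from separate embryos, and the p-values measure the spread between these lines. CH1 binds the transactivation domain of HIF-1α, and the design asks how the oxygen response depends on it.

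Complexes I to IV pass electrons from NADH and succinate through ubiquinone and cytochrome c to oxygen. Complexes I, III and IV pump protons as they do so, and complex V uses the proton gradient to make ATP. Most subunits are encoded in the nucleus, and the core of each complex except complex II also holds subunits encoded in mitochondrial DNA. Cells short of oxygen are known to adjust the chain at a few places, through isoform exchange (COX4 isoforms, the NDUFA4 paralogue NDUFA4L2), through removal of mitochondria and through pyruvate dehydrogenase kinase, which keeps pyruvate from the citrate cycle.

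The authors' scale factors lay between 2.57 and 4.28, lowest in the flox2_1 normoxia array. Mean signals of Crebbp over both arrays of a line were 755 in flox1 and 790 in triCH1flox1, 1045 and 1100 in flox2_2 and triCH1flox2_2, and 1735 and 1804 in flox2_1 and triCH1flox2_1. The lines with a floxed Crebbp allele were thus lowest, but the lines with a floxed Ep300 allele also differed among themselves. Ep300 was 499 and 655 in flox1 and triCH1flox1 against 237 to 424 in the other lines. Where these probes lie relative to the deleted parts is not known here. All 9 fibroblast markers reached a mean of 100. None of the 4 endothelial or the 3 brown adipocyte markers did, and Ucp1 did not exceed 18.5 on any array. Of the macrophage markers 3 of 5 did, of the epithelial 2 of 4 and of the heart muscle 2 of 5, with summed signals per array of 405.4 to 616.9, 223.5 to 879.5 and 186.5 to 681.4. Of the 6 skeletal muscle markers only Des and Acta1 did, with Myod1, Myog, Myf5 and Myh3 at medians of 37.7 or less. The summed signal of that list was 12263.3 to 18362.6 in control and 8005.4 to 13833.7 in triCH1 lines in normoxia, carried by Acta1. In hypoxia the ranges did not overlap, with 15461.9 to 17438.4 in control and 10219.0 to 13723.2 in triCH1 lines. The part of these lists in the results below was not tested.

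After 6 h of hypoxia, 74 of the 76 subunit genes passed no test and 2 rose. For the mean over both line types, 1.75% of all tested probe sets were called, higher or lower, beside these 2 of 76. Ndufa4l2, which encodes a paralogue of the NDUFA4 subunit and is known as a HIF-1 target, rose 4.29-fold as a mean over both line types. Ndufv3, which encodes a small accessory subunit at the NADH-oxidizing tip of complex I, rose 1.49-fold. No subunit fell. The other 74 mean responses lay between −0.17 and 0.18 on the log2 scale. Of these, 0 of 74 had an unadjusted p under 0.05 in limma, against 11.3% of all tested probe sets. Members moved together within single lines, in directions that differed between lines (below). That widens the error of each, so these are not 74 independent results. The members taken as catalytic, Ndufs1, Ndufv1, Sdha, Sdhb, Uqcrfs1, Cyc1, Atp5a1 and Atp5b, were among the 74, and none of these belongs to complex IV. In cultures measured in bulk, fewer cells with a transcript and less of it per cell cannot be told apart.

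Ndufa4l2 was dim in normoxia and was the member with the widest response. In control lines its signals (probe set 1434905_at, in the authors' scaled intensity units) were 21.6, 160.6 and 137.2 in normoxia and 881.1, 639.9 and 488.1 in hypoxia, for flox2_1, flox2_2 and flox1. In triCH1 lines they were 26.7, 86.1 and 20.1 in normoxia and 137.8, 120.6 and 196.8 in hypoxia, for triCH1flox2_1, triCH1flox2_2 and triCH1flox1. Within each line type every hypoxia array lay above every normoxia array, but the triCH1 hypoxia arrays at 137.8 and 120.6 lay below the flox2_2 normoxia array. Group means were 106.5 ± 74.4 and 669.7 ± 198.2 (SD, n = 3) in control lines and 44.3 ± 36.3 and 151.7 ± 40.0 (n = 3) in triCH1 lines. The normoxia signals were at or below the level of 100 used as a filter in 4 of 6 lines, so the gene was tested because of its hypoxia signals, and its fold change is understated by the pseudocount of 20.

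The log2 response of Ndufa4l2, computed from log2(signal + 20) with limma, was 2.67 ± 0.51 (SE) in control lines, with a Benjamini-Hochberg adjusted p of 0.02. That call was lost with a pseudocount of 1 (3.03, limma adjusted p = 0.0664) and in the lines with a floxed Ep300 allele alone (3.15, limma adjusted p = 0.051), and a pseudocount of 100 gave 1.94. Over all probe sets 0.831% were called in that comparison at an adjusted p under 0.05, and of the members 1 of 76 was. In triCH1 lines the response was 1.53 ± 0.51 and did not pass (limma adjusted p = 0.468). There, limma called 0 of 76 members, with 2 (Ndufa4l2 and Ndufv3) at an unadjusted p under 0.05, against 0.635% of all probe sets called. The mean over both line types was 2.10 ± 0.36 (limma adjusted p = 0.00566), and 1.75% of all probe sets were called for it, against 2 of 76 members.

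The response of Ndufa4l2 was smaller in triCH1 than in control lines, but the difference did not pass. It was −1.13 ± 0.72 (limma adjusted p = 1), with a 95% interval from −2.68 to 0.42. That comparison called 0 of 76 members and 0% of all probe sets, and 0 members had an unadjusted p under 0.05 in it. In hypoxia itself Ndufa4l2 was 3.98-fold lower in triCH1 than in control lines (log2 −1.99 ± 0.51, limma adjusted p = 0.282). It was the only member with an unadjusted p under 0.05 in limma there, against 7.97% of all tested probe sets. Of all probe sets 0.0741% were called in that comparison, and no member was. The responses of single lines overlapped: 4.44, 1.87 and 1.69 in flox2_1, flox2_2 and flox1, and 1.76, 0.41 and 2.43 in triCH1flox2_1, triCH1flox2_2 and triCH1flox1. The response of flox2_1 rested on a normoxia signal of 21.6, near the pseudocount, and without the flox2_1 line, the flox2_2 line or the flox1 line the response in control lines no longer passed (adjusted p up to 0.238 over 18 omissions of an array or a line). The mean response passed in all 18 (adjusted p 0.00352 to 0.0345).

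The paralogue Ndufa4, whose product is bound to complex IV, was bright and flat. Its normoxia and hypoxia signals were 9240.9 and 9908.7 in flox2_1, 8692.7 and 8955.3 in flox2_2 and 9332.1 and 9068.2 in flox1. In the triCH1 lines they were 9746.1 and 10225.1 in triCH1flox2_1, 8743.0 and 10802.5 in triCH1flox2_2 and 9439.6 and 7704.9 in triCH1flox1. The groups overlapped throughout, and the mean response was 0.03 ± 0.09 with a 95% interval from −0.17 to 0.23.

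**Figure D1:**
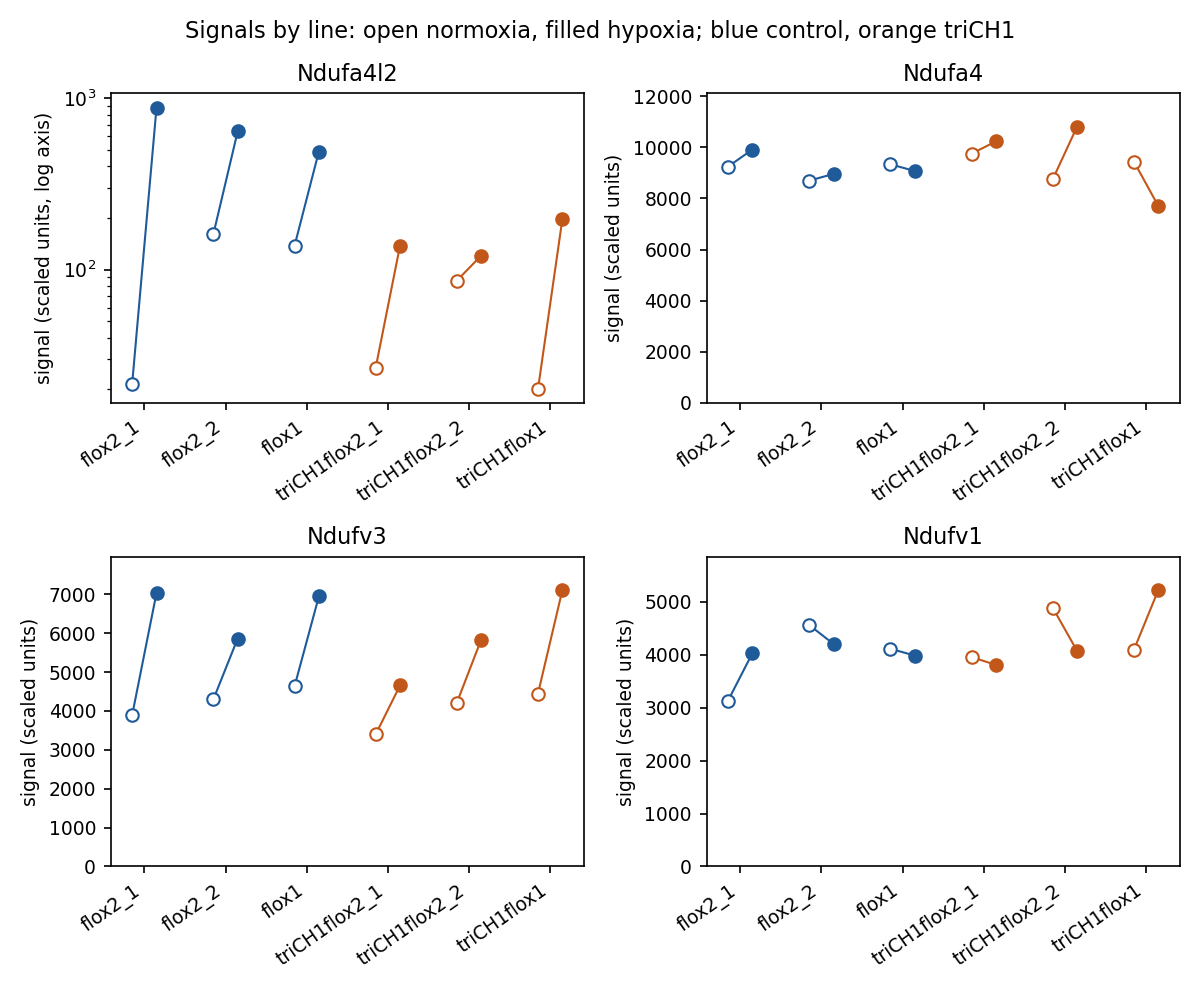
Signals of Ndufa4l2 (log axis), Ndufa4, Ndufv3 and Ndufv1 (linear axes from 0) in the 6 lines, in the authors' scaled units; open points are normoxia, filled points hypoxia, blue the control and orange the triCH1 lines, 1 array per point. Ndufa4l2 and Ndufv3 are higher in hypoxia in 6 of 6 lines, and Ndufa4 and Ndufv1 are not.

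Ndufv3 had a smaller but more even response. Its normoxia signals (probe set 1424628_a_at) were 3895.2, 4297.0 and 4629.4 in flox2_1, flox2_2 and flox1 and 3395.2, 4210.7 and 4448.3 in triCH1flox2_1, triCH1flox2_2 and triCH1flox1. The hypoxia signals in the same order were 7033.8, 5862.6 and 6945.3 in control and 4657.0, 5833.8 and 7105.8 in triCH1 lines. The lowest hypoxia array, of triCH1flox2_1, lay just above the highest normoxia array, of flox1, so the 6 hypoxia arrays did not overlap the 6 normoxia arrays. That held for 1 of 76 members and for 1.43% of all probe sets. The responses of single lines were 0.85, 0.45 and 0.58 in control and 0.45, 0.47 and 0.67 in triCH1 lines.

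The mean response of Ndufv3 was 0.58 ± 0.12 (limma adjusted p = 0.0194), with a 95% interval from 0.33 to 0.83. It was 0.63 in control lines (limma adjusted p = 0.173) and 0.53 in triCH1 lines (limma adjusted p = 0.389), and neither passed in the fit of group means. With the line as a replicate block, which removes the level of each line, the response in control lines passed as well (limma adjusted p = 0.0183). That fit called 2 of 76 members and 1.4% of all probe sets for control lines, 0 of 76 and 1% for triCH1 lines (adjusted p = 0.0671 for Ndufv3) and 2 of 76 and 3.67% for the mean response. For the mean response 1 of the other 74 members, Ndufa1 (0.17), then had an unadjusted p under 0.05, against 16.7% of all probe sets. The mean response of Ndufv3 no longer passed without the flox2_1, flox2_2, flox1 or triCH1flox2_2 line. Nor did it without the normoxia array of triCH1flox2_1 or flox2_2 or the hypoxia array of flox2_1, flox1 or triCH1flox2_2. Over all 18 omissions its adjusted p was 0.00788 to 0.124 with log2 values of 0.50 to 0.66. The difference in response between line types was −0.09, with a 95% interval in the blocked fit from −0.47 to 0.28. Each of Ndufv3 and Ndufa4l2 was measured by 1 probe set.

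Ndufv3 is 1 of 3 flavoprotein subunits. NDUFV1, which binds NADH and the flavin, and NDUFV2, which carries an iron-sulfur cluster, form the catalytic tip with it. Ndufv1 gave 3133.0 and 4028.6 (normoxia and hypoxia) in flox2_1, 4560.6 and 4201.6 in flox2_2 and 4112.0 and 3984.3 in flox1. In triCH1flox2_1, triCH1flox2_2 and triCH1flox1 it gave 3956.5 and 3806.4, 4887.8 and 4072.2, and 4090.1 and 5219.0. It was higher in hypoxia in 2 of 6 lines, and its mean response of 0.04 ± 0.12 did not pass, as the 0.04 ± 0.10 of Ndufv2 did not.

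The 250 bases before the transcription start of these 3 genes are printed because the tip subunits share 1 assembly but not 1 response. They are from RefSeq on GRCm38.p6, each on its gene's strand: chr17:31519865-31520114 (plus strand) for Ndufv3, chr19:4012756-4013005 (minus strand) for Ndufv1 and chr17:66101560-66101809 (minus strand) for Ndufv2. Capitals mark the core of the hypoxia response element, ACGTG or GCGTG on either strand.
Ndufv3: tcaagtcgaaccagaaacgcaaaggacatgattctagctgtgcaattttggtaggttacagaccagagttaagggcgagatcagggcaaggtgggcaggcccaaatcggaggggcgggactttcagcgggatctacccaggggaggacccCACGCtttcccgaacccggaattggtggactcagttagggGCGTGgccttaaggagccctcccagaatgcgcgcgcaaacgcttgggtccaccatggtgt
Ndufv1: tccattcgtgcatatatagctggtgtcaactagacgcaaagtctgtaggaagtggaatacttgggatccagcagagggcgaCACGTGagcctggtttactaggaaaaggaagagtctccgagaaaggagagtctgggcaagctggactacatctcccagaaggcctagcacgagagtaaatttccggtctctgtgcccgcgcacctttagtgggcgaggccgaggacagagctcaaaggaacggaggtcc
Ndufv2: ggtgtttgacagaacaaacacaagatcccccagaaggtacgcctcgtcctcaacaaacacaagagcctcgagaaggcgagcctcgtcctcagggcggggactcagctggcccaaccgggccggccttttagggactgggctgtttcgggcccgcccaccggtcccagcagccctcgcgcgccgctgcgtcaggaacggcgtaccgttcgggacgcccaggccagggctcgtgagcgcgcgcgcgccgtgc

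In the Ndufv3 window the core stood at 100 bases before the start, as CACGC on the gene's strand, and at 60 bases, as GCGTG. In that of Ndufv1 the palindrome CACGTG at 169 bases held the core on both strands, and that of Ndufv2 held none. The core was thus present beside a gene that rose and a gene that did not pass. Of 67 RefSeq windows of 62 matched members 52.2% held ACGTG or GCGTG, against 38.6% of all 32851 windows. The ETS core CCGGAA, bound by GABPA, was in 29.9% of member windows and 12% of all. The NRF1 core GCATGCGC was in 10.4% and 2.26%. Mean GC content was 57% in member windows and 53.2% in all, and its part in these shares was not tested. The cores of HIF and NRF1 can overlap each other by 1 or a few letters, and a match is a description of letters, not of binding.

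Among the other 32 subunits of complex I the mean responses lay between −0.13 and 0.18, with 0 of 32 past the test and 17 above 0. Ndufa3 and Ndufa12, accessory subunits, were at the ends with 0.18 ± 0.12 and −0.13 ± 0.12. Ndufs1, the largest iron-sulfur subunit of the electron path, gave 2285.1, 1905.8 and 1955.2 in normoxia and 2160.2, 2216.5 and 1881.9 in hypoxia in flox2_1, flox2_2 and flox1. In triCH1flox2_1, triCH1flox2_2 and triCH1flox1 it gave 2252.4, 1664.6 and 1945.0 in normoxia and 2284.8, 2267.6 and 1720.7 in hypoxia. The groups overlapped, with a mean response of 0.06 ± 0.12. Ndufs8, which carries iron-sulfur clusters near the ubiquinone site, had −0.08 ± 0.15, and Ndufa13 (GRIM-19) had −0.02 ± 0.14. All 32 had a 95% interval inside a 1.5-fold change either way (0.58 on the log2 scale).

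Complex II, which is also the succinate dehydrogenase of the citrate cycle, had 4 members and none passed. The flavin subunit Sdha had the lowest mean response, −0.09 ± 0.10, and the iron-sulfur subunit Sdhb had −0.02 ± 0.11. The membrane anchors Sdhc and Sdhd had −0.05 ± 0.10 and −0.00 ± 0.13. Sdhd is a reported target of the hypoxia-induced microRNA miR-210. Its signals were 2571.8, 3718.8 and 3273.1 in normoxia and 3559.0, 2779.3 and 3780.9 in hypoxia in flox2_1, flox2_2 and flox1, so it was higher in 2 control lines and lower in 1. In the triCH1 lines it was 2942.1, 3154.6 and 3862.7 in normoxia and 2692.4, 3330.7 and 3331.7 in hypoxia.

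In complex III, which hands electrons from ubiquinol to cytochrome c, 0 of 9 members passed and the mean responses lay between −0.14 and 0.06. The electron-carrying subunits were the lowest: Cyc1, cytochrome c1, at −0.14 ± 0.13, and Uqcrfs1, the Rieske iron-sulfur protein, at −0.09 ± 0.12. Cyc1 signals were 5231.8, 7602.6 and 7123.5 in normoxia and 6860.1, 6028.4 and 5768.5 in hypoxia in flox2_1, flox2_2 and flox1. In triCH1flox2_1, triCH1flox2_2 and triCH1flox1 they were 6088.5, 8178.9 and 7892.1 in normoxia and 5040.4, 6627.6 and 7808.6 in hypoxia. The signal was lower in hypoxia in every line except flox2_1, and the groups overlapped. The small subunits Uqcrb and Uqcrq were the highest, at 0.06 ± 0.07 and 0.05 ± 0.14.

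Complex IV, cytochrome c oxidase, has several nuclear subunits with a general and a tissue-restricted isoform. Its 11 members had mean responses from −0.11 to 0.12, and 0 passed. The general isoforms were bright and had mean responses of 0.06 ± 0.12 for Cox5a, 0.06 ± 0.10 for Cox5b, 0.11 ± 0.10 for Cox6a1, 0.10 ± 0.09 for Cox6b1, 0.12 ± 0.09 for Cox6c, 0.04 ± 0.11 for Cox7a2 and −0.01 ± 0.10 for Cox8a. Cox6a1, for example, gave 20325.9, 28396.9 and 28704.0 in normoxia and 25602.4, 27458.5 and 30997.3 in hypoxia in flox2_1, flox2_2 and flox1. The heart and skeletal muscle isoforms were near or below the level of 100. Cox6a2, with a mean of 132.9, was just above that level, and Cox7a1 (53.1) and Cox8b (23.3) were below it. Among other dim genes of the chain, Cox8c (165.2) and Ndufa4l2 (243.1) were above that level. Cox7c (74.3), Ndufb4 (31.8) and Cox7b2 (11.5) were below it. The genes below that level were not members. Cox7c and Ndufb4 are not muscle isoforms. Probe sets with several symbols were not named, so a dim probe set does not show that these genes were silent. On single arrays Cox7a1 reached at most 91.2. Responses could therefore not be read for the muscle isoforms of subunits 7a and 8.

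COX4 is the subunit for which an exchange of isoforms in low oxygen is known, with the protease LONP1 removing COX4-1. It is not encoded by a gene of the list above and was read beside it. Cox4i1 had a mean response of 0.05 ± 0.11. Cox4i2 averaged below 100 over the 12 arrays and was above it on 3 of them, with 40.5, 48.1 and 120.8 in normoxia and 84.7, 16.4 and 135.1 in hypoxia in flox2_1, flox2_2 and flox1. In triCH1flox2_1, triCH1flox2_2 and triCH1flox1 it had 74.4, 131.1 and 98.5 in normoxia and 74.2, 93.3 and 83.4 in hypoxia. It was not tested, and an exchange could not be read. Lonp1 rose. Its signals were 869.9, 1173.9 and 972.4 in normoxia and 1836.6, 1592.9 and 2248.7 in hypoxia in the control lines in that order, and 1281.4, 1325.0 and 886.8 against 2435.0, 1760.6 and 2305.4 in the triCH1 lines. All 6 hypoxia arrays were above all 6 normoxia arrays, and the mean response was 0.89 ± 0.15 (limma adjusted p = 0.00353). Of the 3 tested genes of cytochrome c, COX4 and the protease, Lonp1 was the 1 that rose, and somatic cytochrome c, Cycs, had −0.03 ± 0.11.

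In complex V 0 of 17 members passed, with mean responses from −0.17 to 0.13. The catalytic F1 subunits Atp5a1 and Atp5b had −0.01 ± 0.08 and 0.06 ± 0.09. The 3 genes for the same ring subunit c, Atp5g1, Atp5g2 and Atp5g3, had −0.05 ± 0.11, 0.07 ± 0.09 and 0.03 ± 0.09. Atp5e and Atp5j, of the central and the outer stalk, were highest at 0.13 ± 0.11 and 0.11 ± 0.07, and Atp5o had −0.08 ± 0.12. Atp5md, a small subunit of the dimer interface, was lowest at −0.17 ± 0.20, and its lines went different ways. It gave 5270.9 and 8416.3 (normoxia and hypoxia) in flox2_1 and 8619.4 and 3686.6 in triCH1flox2_1, with line responses of 0.67 and −1.22. In the other 4 lines its responses lay between −0.50 and 0.46.

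**Figure D2:**
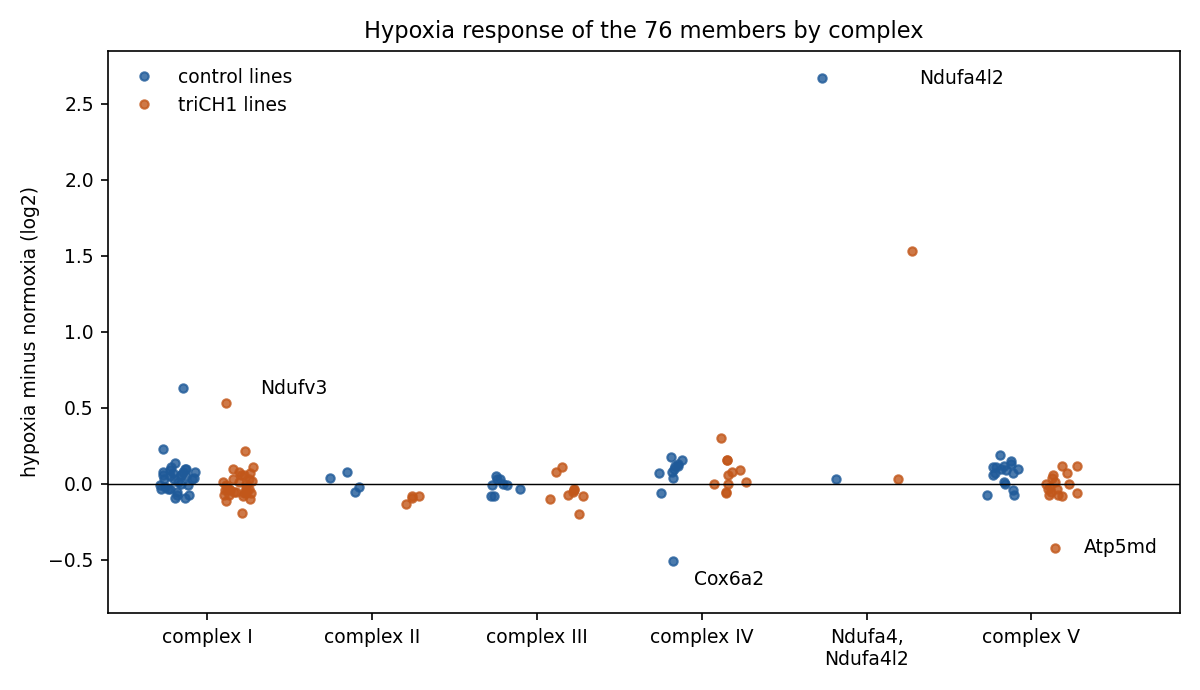
Log2 difference between hypoxia and normoxia (limma, log2(signal + 20), 3 lines of each type) for the 76 members by complex; blue points are control lines, orange points triCH1 lines, and horizontal scatter has no meaning. Ndufa4l2 (2.67 and 1.53) and Ndufv3 (0.63 and 0.53) stand above the other members, and Cox6a2 (−0.51 in control lines) and Atp5md (−0.42 in triCH1 lines) are the lowest points.

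How small the subunits' responses could be shown to be depended on the error. For the mean response 71 of 76 members (93.4%) had a 95% interval inside a 1.5-fold change either way, against 59.4% of all tested probe sets. The 5 others were Ndufa4l2, Ndufv3, Atp5md, Cox6b2 and Cox8c. In control lines alone the count was 68 of 76 and in triCH1 lines 67 of 76. For the difference in response it was 53 of 76 (69.7%, against 14.1% of all probe sets), so a change in response of under 1.5-fold in triCH1 lines was bounded for fewer members. The median mean response was 0.01 over the members and −0.03 over all tested probe sets.

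**Figure D3:**
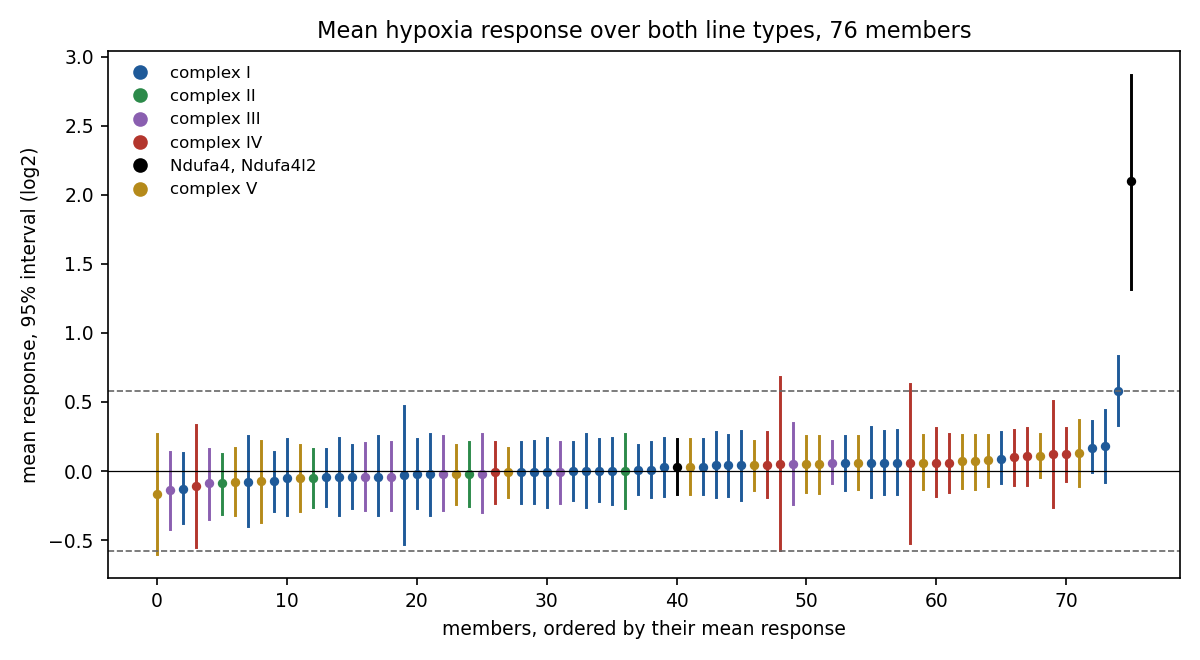
Mean hypoxia response over both line types with its 95% interval (log2, limma, 12 arrays) for the 76 members, ordered by value and coloured by complex; dashed lines mark a 1.5-fold change. 71 intervals lie inside the dashed lines, and those of Ndufv3 and Ndufa4l2 lie above 0.

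The lines did not all respond alike: in 4 of 6 lines most subunits moved in the same direction, upward in flox2_1 and triCH1flox2_2 and downward in flox2_2 and triCH1flox1. In flox1 and triCH1flox2_1 the medians were small. In flox2_1 70 of 76 members were higher in hypoxia, with a median response of 0.28. In flox2_2 16 of 76 were higher and the median was −0.16, and in flox1 43 were higher with a median of 0.02. Among triCH1 lines 32 were higher in triCH1flox2_1 (median −0.01), 58 in triCH1flox2_2 (0.15) and 18 in triCH1flox1 (−0.14). Over all other tested probe sets the medians lay between −0.05 and −0.01 in the same lines, and 45% to 48.9% were higher in hypoxia.

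By complex, flox2_1 had medians of 0.27 in complexes I and III, 0.22 in II, 0.30 in IV and 0.29 in V. In flox2_2 they were −0.17, −0.26, −0.26, −0.15 and −0.10 for complexes I to V. In triCH1flox1 complexes I, II and III had −0.17, −0.35 and −0.18, while complexes IV and V had 0.03 and −0.08. The line medians therefore went up in some lines and down in others within both line types. Subunits that rose or fell in all 6 lines were few: 2 of 76 (Ndufa4l2 and Ndufv3) were higher in 6 of 6 lines, against 5.14% of all probe sets, and 0 of 76 were lower in 6 of 6, against 7.23%. With 70 of 76 members higher in flox2_1 and 16 of 76 in flox2_2, few could agree in all 6 lines. The low counts thus restate the line shifts and are not a separate result.

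Bright probe sets outside the list moved in the same direction in these 4 lines, by less. The 3832 other probe sets averaging 2000 or more had medians of 0.11 in flox2_1, −0.04 in flox2_2, 0.07 in triCH1flox2_2 and −0.03 in triCH1flox1. In flox2_2 and triCH1flox1 this was within 0.02 of the medians of −0.05 and −0.01 over all other tested probe sets. After quantile normalization the members' median was 0.15 in flox2_1 and −0.16, 0.08 and −0.15 in the other 3. It was then −0.02 in flox1 and −0.03 in triCH1flox2_1, with 33 and 25 of 76 members higher in hypoxia. The flox2_1 normoxia array, the one with the lowest scale factor, had a median deviation of the members from their mean of −0.26, the lowest of the 12 arrays, against 0.04 for all tested probe sets. The scale factor rose from normoxia to hypoxia in flox2_1 (2.57 to 3.35), triCH1flox2_2 (3.45 to 4.11) and triCH1flox2_1 (3.42 to 3.85). It also rose in flox1 (4.07 to 4.28) and triCH1flox1 (3.43 to 3.58), and fell in flox2_2 (3.78 to 3.48). The part of array scaling in the line shifts was not tested.

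**Figure D4:**
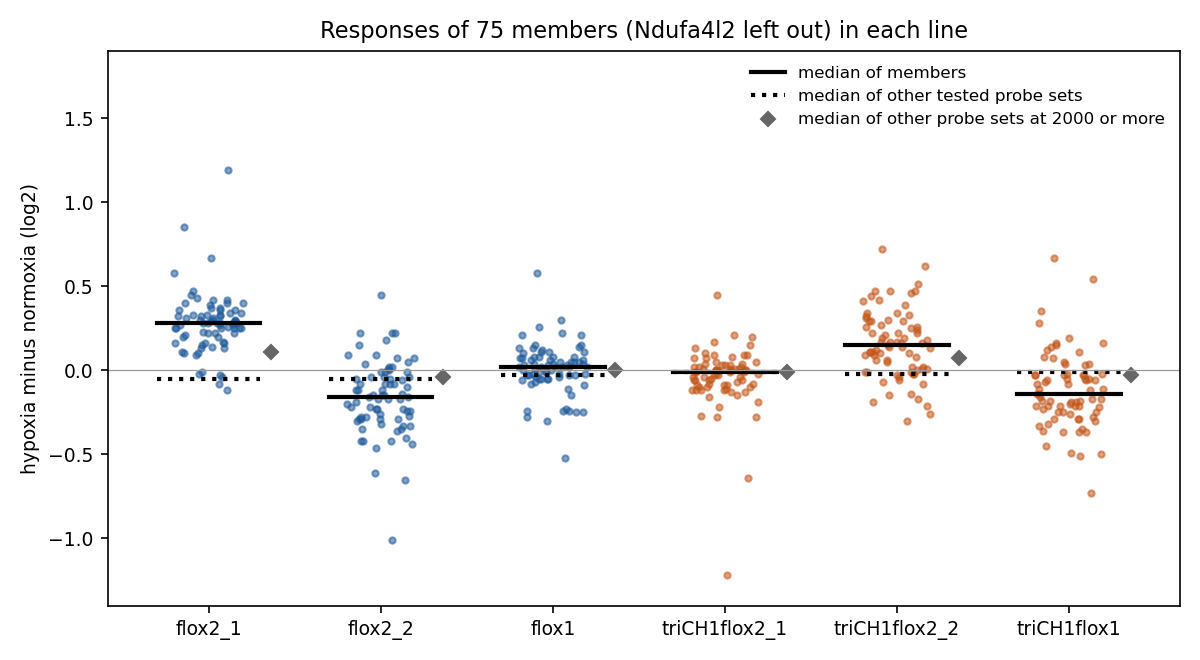
Log2 hypoxia responses of 75 members in each line (points; Ndufa4l2, which reaches 4.44, is left out), with the median over all 76 members (solid bar), the median over other tested probe sets (dotted bar) and over other probe sets averaging 2000 or more (diamond). The members sit above 0 in flox2_1 (median 0.28) and triCH1flox2_2 (0.15) and below it in flox2_2 (−0.16) and triCH1flox1 (−0.14), while the dotted bars stay between −0.05 and −0.01.

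Between line types no subunit passed at either oxygen level. In normoxia triCH1 lines differed from control lines by a median of 0.03 over the members, and 0 of 76 were called, against 0.00529% of all probe sets, with 0 members at an unadjusted p under 0.05. In hypoxia the median was −0.05. In normoxia 68 and in hypoxia 67 of the 76 intervals lay inside a 1.5-fold change, against 32.3% and 31.1% of all tested probe sets, most of which were dimmer than the members.

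The level of single subunits also differed from line to line. Line means (over both arrays of a line) spanned a median of 0.32 log2 units over the members and 0.61 over all tested probe sets, without matching for brightness. 3 members spanned over 1: Ndufa4l2 (2.01), Cox6b2 (1.47) and Ndufs5 (1.19), against 3514 of all 18903 probe sets. Cox6b2, the testis isoform of subunit 6b, averaged 339.1 in flox2_1, 905.0 in flox2_2 and 975.9 in flox1, and 567.2, 460.6 and 436.8 in triCH1flox2_1, triCH1flox2_2 and triCH1flox1. The control lines thus fell on both sides of the triCH1 lines. Ndufs5, an accessory subunit of complex I, averaged 2317.0 in flox1 and 4094.2 to 5304.6 in the other 5 lines, and both arrays of flox1 were low, at 2319.5 and 2314.6.

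Cox7a2l, also called SCAF1 or COX7RP and known for joining complexes III and IV into supercomplexes, was lower in a pair of the triCH1 lines than in the others. It averaged 3621.9 in triCH1flox2_1 and 3601.8 in triCH1flox2_2, against 5941.0 in triCH1flox1 and 5520.8 to 6120.5 in the control lines. Over all triCH1 lines the difference from control was −0.39 ± 0.25 in normoxia and −0.52 ± 0.25 in hypoxia and did not pass (limma adjusted p = 0.839 and 0.642). Its other probe sets, 1421772_a_at and 1432263_a_at, had the same sign in both comparisons, with −0.35 and −0.20 in normoxia and −0.31 and −0.39 in hypoxia. The pair of low lines was noticed in the values and is a description, and only 1 triCH1 line has a floxed Crebbp allele.

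**Figure D5:**
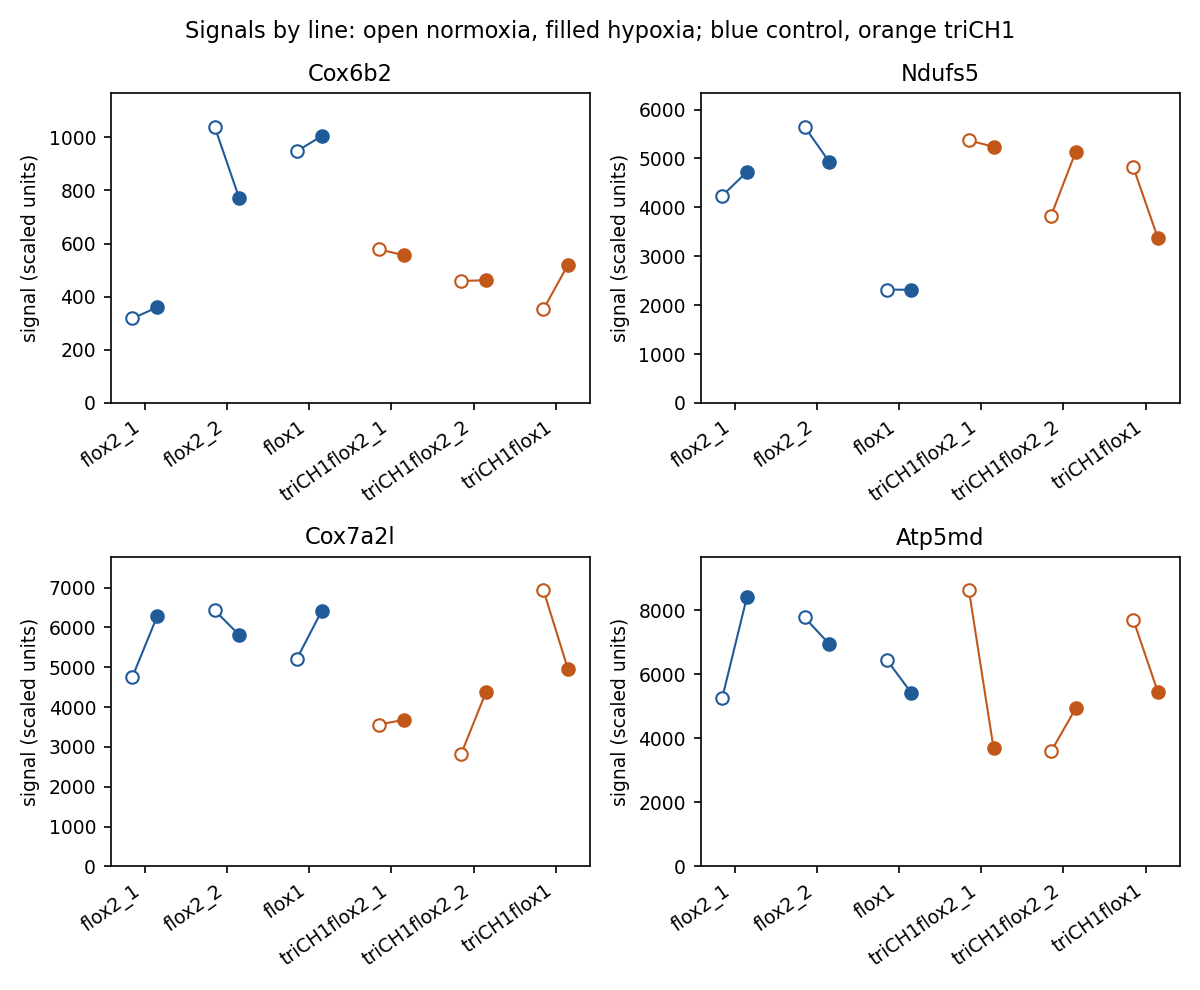
Signals of Cox6b2, Ndufs5, Cox7a2l and Atp5md by line in the authors' scaled units (linear axes from 0); open points are normoxia, filled points hypoxia, blue control and orange triCH1 lines, 1 array per point. Ndufs5 is low on both flox1 arrays (2319.5 and 2314.6), Cox7a2l is low in triCH1flox2_1 and triCH1flox2_2, and the 2 arrays of a line lie far apart for Atp5md in triCH1flox2_1 (8619.4 and 3686.6).

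Other probe sets of the same genes were read as a check on the choice of the brightest. 41 members had 61 other tested probe sets. Of these 44 had the sign of the member in the mean response, 38 in the control and 39 in the triCH1 response. The median gap in the mean response was 0.04, beside a median absolute mean response of 0.05 over the members. In any of the 6 comparisons 0 of 61 were called. Ndufa4l2 and Ndufv3 had no other tested probe set, so the check does not cover them.

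The genes around the chain were read from lists of the same pathway. All 7 tested genes of a list of low-oxygen mitochondrial genes rose in the mean response, Ndufa4l2 and Lonp1 being members of it. Bnip3, a receptor for the removal of mitochondria, rose by 4.42 ± 0.13 and Pdk1, the pyruvate dehydrogenase kinase, by 3.43 ± 0.19 on the log2 scale (limma adjusted p = 2.19e-10 and 7.74e-08). Bnip3 went from 910.4, 585.7 and 672.1 to 16863.2, 16902.8 and 14392.2 in flox2_1, flox2_2 and flox1. In the triCH1 lines it went from 708.9, 485.6 and 670.4 to 12323.9, 14426.6 and 13019.3. Higd1a, which encodes a small hypoxia-induced protein of complex IV and its supercomplexes, rose by 1.49 ± 0.08, Ak4 by 2.78 ± 0.13 and Mgarp by 2.45 ± 0.39. The genes of this list rose in the same RNA in which 74 subunit genes passed no test. The list was chosen with earlier results of these data known, and 1.75% of all tested probe sets were called for the mean response.

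Among 43 tested assembly factors 1 fell and 0 rose in the mean response, for which 1.75% of all tested probe sets were called. Ndufaf4, an early assembly factor of complex I, fell by 0.53 on the log2 scale (limma adjusted p = 0.0396). Its signals were 2599.3, 3018.6 and 2631.8 in normoxia and 1873.8, 1950.0 and 1763.8 in hypoxia in flox2_1, flox2_2 and flox1. In the triCH1 lines they were 3648.0, 3229.7 and 2860.6 in normoxia and 2441.6, 2727.4 and 1757.5 in hypoxia. It was lower in 6 of 6 lines. The median over the list was −0.13, and 6 of 43 genes were above 0 (8 of 43 at an unadjusted p under 0.05). Over all tested probe sets the median was −0.03, 44.2% were above 0 and 11.3% had an unadjusted p under 0.05. Of 76 tested genes of the mitochondrial ribosome 7 were above 0, with a median of −0.13 and 0 called. Of these genes 7 had an unadjusted p under 0.05, and 10 in the blocked fit, where 16.7% of all probe sets did.

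Of 14 tested regulators of mitochondrial biogenesis 0 were called without the block (2 at an unadjusted p under 0.05), with a median of −0.14. Of all tested probe sets 1.75% were called for the mean response and 11.3% had an unadjusted p under 0.05. Polrmt, the mitochondrial RNA polymerase, had −0.57 ± 0.18 (limma adjusted p = 0.158). It fell only in the fit with the line as a replicate block (limma adjusted p = 0.0326), which called 3.67% of all probe sets. Nrf1, Esrra and Tfam had −0.02 ± 0.15, −0.15 ± 0.16 and −0.14 ± 0.17. The 12 tested enzymes of the citrate cycle had a median of −0.02 and 0 calls, also 0 at an unadjusted p under 0.05. The 1 mitochondrially encoded subunit that was tested, ND5, had 0.16 ± 0.16. Of 5 reported miR-210 targets Gpd1l fell by 0.72 (limma adjusted p = 0.0226), and Iscu, Cox10, Sdhd and Ndufa4 had 0.06 ± 0.14, −0.43 ± 0.16, −0.00 ± 0.13 and 0.03 ± 0.09. Gpd1l and Cox10 were the 2 of the 5 with an unadjusted p under 0.05 in limma.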

How the data were processed

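RNA from 12 cultures was hybridised to Affymetrix Mouse430_2 arrays. Per the labels, the authors deposited probe set signals of intensity on a linear scale, from Affymetrix's Statistical algorithm with a scaling target of 500; the software version is not given in the sources used here, and detection calls were not used. Of 45101 probe sets 64 manufacturer's controls were left out, and 34945 had exactly 1 symbol in the array annotation, 932 several and 9160 none listed. Probe sets with several symbols were tested but not named.

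Signals were tested as log2(signal + 20) for 18903 probe sets averaging 100 or more, in limma 3.58.1 under R 4.3.3 (lmFit, then eBayes with trend), 1 mean per group and Benjamini-Hochberg adjustment within each of 6 contrasts, two-sided at 0.05. The fit was also run on simulated data with independent errors and no line effect, which cannot show how it handles paired arrays. Array number limits the precision. Arrays of one line are paired, by the line name in the labels: their deviations from the group means correlated at 0.28 (flox2_1), −0.02 (flox2_2), 0.47 (flox1), 0.58 (triCH1flox2_1), 0.35 (triCH1flox2_2) and 0.54 (triCH1flox1). The line as a replicate block (fixed for responses, random with a consensus correlation of 0.297 between line types) was an alternative. The others were quantile normalization, median centring, a pseudocount of 1 or 100, a filter at 200 or none, eBayes without trend, 1 value per gene, the mean over a member's probe sets, the Ep300-floxed lines alone, a covariate for the floxed gene, and the omission of single arrays or lines.

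Named members were those called in any contrast, the 2 highest and 2 lowest responses and the brightest member of each complex, isoform pairs, catalytic subunits and members near the filter; members named for their spread between lines were chosen after their values were seen. The members, the lists and the rule were chosen with earlier results of these data known. Promoter windows came from RefSeq.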

Additional observations from a re-analysis of the deposited data

Results flagged for a closer look

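For Cox6a2, the heart and skeletal muscle isoform of subunit 6a, the 3 control lines and the 3 triCH1 lines moved in opposite directions. Signals in normoxia and hypoxia were 131.6 and 130.3 in flox2_1, 195.4 and 87.2 in flox2_2 and 135.6 and 88.3 in flox1, all lower in hypoxia. In triCH1flox2_1, triCH1flox2_2 and triCH1flox1 they were 100.7 and 119.4, 152.9 and 209.0, and 108.7 and 136.0, all higher. The difference in response was 0.81 ± 0.41, with a 95% interval from −0.07 to 1.70, and did not pass (limma adjusted p = 1). Such opposite lines were found for 1 of 76 members and for 0.889% of all tested probe sets. The probe set is dim, with a mean signal of 132.9, and the flox2_1 change was −0.01.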

How the results depend on the processing

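The count of members called higher in control lines was 1. It was 2 with the line as a replicate block and with the floxed gene as a covariate (Ndufv3 added, adjusted p = 0.0183 and 0.0468), and 0 with a pseudocount of 1 (Ndufa4l2, adjusted p = 0.0664) and in lines with a floxed Ep300 allele alone (0.051). It was 0 to 1 over the omissions of single arrays or lines, and 0 without the hypoxia array of flox2_1 or of flox2_2 or without any control line. The count for the mean response was 2, and 1 without a variance trend, in lines with a floxed Ep300 allele alone (Ndufv3 lost, adjusted p = 0.0539 and 0.138) and in 9 of 18 omissions, with a range of 1 to 2. The count of members lower in triCH1 lines in normoxia was 0, and 0 to 1 over the omissions (Cox7a2l without triCH1flox1, adjusted p = 0.0481, against 0.839 with all lines). All other counts were 0 under every alternative run, the replicate block included. The 6 medians over the members stayed between −0.15 and 0.15 and moved by less than the spread between lines. The size of the Ndufa4l2 response in control lines depends on the pseudocount, 3.03 with 1 and 1.94 with 100. Scaled signals carry no count, so how far dim probe sets lie above background is not known here, which limits Ndufa4l2 in normoxia, Cox6a2 and Cox8c.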
